A study of Mus musculus with 16 samples.

Results

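The comparison described here asked which genes changed on the first day of all-trans retinoic acid (RA) in embryoid bodies (EBs) of mouse embryonic stem cells (ESCs) that carry no intact Taf4a. It sets 2 libraries labelled Taf4a-/- EB5, made after the first day of RA, against 2 libraries labelled Taf4a-/- EB4, made just before RA was added. These are 4 of the 16 libraries of the series, and every gene of the table is a member: 27807 genes were listed and 16124 reached a mean of 10 normalised counts over all libraries and were tested. The other 12 libraries are wild-type (WT, Taf4a+/+) EB4 and EB5, both genotypes as undifferentiated ES cells, and both genotypes at EB8, later in the treatment. Only the WT EB4 and EB5 libraries are compared with the mutant ones below.

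The protein made from Taf4a sits in TFIID, a multi-subunit complex that helps RNA polymerase II start at promoters. The null allele lacks exons 11 and 12. Both Taf4a-/- lines (KO below) and both WT lines were derived from blastocysts of Taf4a+/- crosses, and ESCs were grown on mouse embryonic fibroblast feeders with LIF before they were aggregated. EBs are floating balls of differentiating cells, so each library is a mixture of cell types, and fewer cells of a type cannot be told apart from less RNA per cell. RA enters cells, is carried by Crabp proteins and binds RAR-RXR receptor pairs, which sit on repeats of a 6-base half-site. Bound RA turns many of these sites from repression to activation. In this EB protocol RA directs the aggregates toward neural fates, and the study used it to make glutamatergic neurons. Among the best known direct targets are Rarb, Cyp26a1 and the 3' genes of the Hox clusters.

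Reads over the whole Taf4a gene were found in both genotypes, at 2369 and 2056 normalised counts in EB4 and 2284 and 2002 in EB5 for KO and 1959.6 and 1939 in EB4 and 1778 and 1756 in EB5 for WT (replicate 1, then replicate 2, here and throughout). Gene-level counts include the exons outside the deletion, so they do not check the genotype. The paralogue Taf4b was read at 1173 and 1266 in EB4 and 919 and 777 in EB5 in KO, and neither gene passed the test (adjusted p = 0.929 and 0.256). The 4 KO libraries held 22613253 to 26970517 reads on genes. A normalised count is a read count divided by the size factor of its library, so levels of different genes are not comparable unless they are given per kilobase. Changes are given on the log2(normalised count + 1) scale, ± 1 standard error (SE) from the fit over all 16 libraries, with p-values of limma adjusted by Benjamini-Hochberg over the 16124 genes. This scale understates the change of genes that are low in 1 of the 2 stages.

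Before the values, the promoters of 2 members are shown, because both genes rose and both windows hold a repeat of the kind that RAR-RXR pairs bind. The windows are RefSeq promoters of build GRCm38.p6, from 250 bases before to 50 bases after the annotated start of the gene, written 5′ to 3′ on the strand of the gene. Capitals mark a direct repeat of 2 half-sites with 5 bases between them (DR5). The consensus half-site AGGTCA was accepted, and so were AGTTCA as a first variant, GGGTCA as another, and GGTTCA, which combines both. Both strands were searched. Rarb lies at chr14:16575427-16575726 on the minus strand, and its repeat begins 53 bases before the start, on the strand of the gene. Cyp26a1 lies at chr19:37697558-37697857 on the plus strand, and its repeat begins 32 bases before the start, on the opposite strand, so that the capitals show the reverse complement of the half-sites.
Rarb: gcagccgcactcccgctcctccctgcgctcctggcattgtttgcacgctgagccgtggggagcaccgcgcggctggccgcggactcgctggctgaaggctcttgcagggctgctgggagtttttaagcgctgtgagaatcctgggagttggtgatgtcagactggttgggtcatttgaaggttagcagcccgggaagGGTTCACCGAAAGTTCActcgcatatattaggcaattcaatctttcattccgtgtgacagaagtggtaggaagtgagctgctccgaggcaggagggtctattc
Cyp26a1: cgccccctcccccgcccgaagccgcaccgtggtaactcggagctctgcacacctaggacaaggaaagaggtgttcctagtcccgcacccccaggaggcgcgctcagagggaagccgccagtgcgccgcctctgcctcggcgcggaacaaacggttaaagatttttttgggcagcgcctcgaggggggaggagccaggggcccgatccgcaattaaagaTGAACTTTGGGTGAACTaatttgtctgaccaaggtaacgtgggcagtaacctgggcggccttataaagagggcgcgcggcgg
A DR5 was found in 32 of all 32851 promoter windows (0.0974%) and in 6 of the 10737 tested genes with a window (0.0559%). It was found in 3 of the 193 genes that rose in KO and had a window (Cyp26a1, Ppbp and Rarb) and in 0 of the 81 that fell and had one. A spacer of 2 bases was found in 88 windows (0.268%), in 13 of the tested genes with a window (0.121%), in 1 of the 193 and in 2 of the 81. A spacer of 1 base was found in 73 windows (0.222%), in 28 of the tested genes with a window (0.261%), in 0 of the 193 and in 0 of the 81. A match is a description of letters in this window and was not tested as a binding site.

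On the first day of RA, 293 genes rose and 112 fell in KO, which is 1.82% and 0.695% of the tested genes (2.51% in either direction). These shares are the background for each count of list members in the main fit below. A single call in a list says little about the list as a whole. Genes of the RA pathway itself and of the Hox clusters were among the strongest rises, and genes of formative and primed pluripotency among the strongest falls. The rises were the larger changes, with a median log2 change of 2.79 against -1.21 for the falls. A change of at least 1 on the log2 scale was reached by 284 of the risen and 72 of the fallen genes, and a change of at least 4 by 78 risen and 0 fallen genes. In each of the 405 genes both EB5 values lay on the same side of both EB4 values. Over all tested genes that held for 4184 with higher EB5 values (25.9%) and 3895 with lower ones (24.2%). Of the risen genes, 24 had 0 reads in both EB4 libraries, and 54 had at most 3. With the replicate number as a block the counts were 484 up (3.00% of tested genes) and 240 down (1.49%), 4.49% in all. A gene said below to pass with the block only passed in this fit and not in the main fit. Other alternative fits without a block may also have called it. DESeq2 on the recovered reads called 652 up (4.04%) and 365 down (2.26%), 6.31% in all. Leaving out 1 KO library reduced the 405 calls to 194 (without EB4 replicate 1), 164 (without EB4 replicate 2), 132 (without EB5 replicate 1) or 204 (without EB5 replicate 2), with the lone library assumed to vary like the other groups.

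The genes that bind, move and degrade RA included some of the largest changes: 7 of 14 tested members rose and 0 fell, and the median of the list was 1.60 against 0.01 over all tested genes. Cyp26a1, the main enzyme that destroys RA, was read at 144 and 65.1 in EB4 and 12873 and 6704 in EB5 (log2 change 6.57 ± 0.67, adjusted p = 0.000224). Both EB5 libraries were far above both EB4 libraries, and replicate 1 was the higher of the pair at both stages. Its paralogues Cyp26b1 and Cyp26c1 were low before RA, at 16.4 and 12.8 for Cyp26b1 and 5.84 and 1.28 for Cyp26c1, and rose by 4.73 ± 0.78 (adjusted p = 0.00640) and 5.48 ± 0.73 (adjusted p = 0.00172). Dhrs3, which turns retinaldehyde back into retinol, went from 50.2 and 45.9 in EB4 to 979 and 616 in EB5 (log2 change 3.99 ± 0.34, adjusted p = 6.34e-05).

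Crabp2, the carrier that delivers RA to its receptors in the nucleus, stood at 289 and 341 in EB4 and 22132 and 7081 in EB5 (log2 change 5.31 ± 0.47, adjusted p = 7.39e-05). Replicate 1 of EB5 was well above replicate 2, and both were far above EB4. Stra6, the membrane receptor for retinol-binding protein, stood at 18.7 and 11.5 in EB4 and 599 and 547 in EB5 (log2 change 5.19 ± 1.01, adjusted p = 0.0182). Neither gene had any overlap between the stages. The other carrier, Crabp1, stayed at 196 and 185 in EB4 and 247 and 173 in EB5 (adjusted p = 0.947), and the RA-making enzyme Aldh1a2 at 57.2 and 94.4 in EB4 and 75.8 and 81.5 in EB5 (adjusted p = 0.966). Aldh1a3, Rdh10, Rdh11, Rbp4 and Aldh1a1 did not pass either, and Lrat was under the filter.

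Of 12 tested receptors and coregulators 3 rose and 0 fell. Rarb, the receptor whose promoter is shown above, went from 24.5 and 8.93 in EB4 to 942 and 567 in EB5 (log2 change 5.52 ± 0.53, adjusted p = 0.000153). Rara, a receptor gene already read before RA, stood at 1395 and 978 in EB4 and 3932 and 4107 in EB5 (log2 change 1.78 ± 0.27, adjusted p = 0.00383), which was 3.39 times the EB4 mean. Nrip1, a corepressor that RA-bound receptors recruit, stood at 708 and 824 in EB4 and 2633 and 2362 in EB5 (log2 change 1.71 ± 0.25, adjusted p = 0.00335). The stages did not overlap for these 3 genes. Rarg stood at 2279 and 2897 in EB4 and 2083 and 3302 in EB5 and did not pass (adjusted p = 0.988), and none of the 3 RXR genes passed, with Rxra at 526 and 602 in EB4 and 787 and 903 in EB5. The corepressor Ncor1 and the coactivators Ncoa1, Ncoa2 and Ncoa3 were read in all 4 libraries, with changes between -0.34 (Ncoa3) and 0.16 (Ncoa2) that did not pass.

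Other genes known to respond to RA were listed apart. Of 16 tested members 10 rose and 0 fell, with a list median of 3.47. The count was 6 without EB5 replicate 1 and 4 with only the compared groups in the fit. Stra8, which germ cells need to enter meiosis, went from 4.67 and 16.6 in EB4 to 4486 and 7028 in EB5 (log2 change 9.14 ± 0.67, adjusted p = 4.34e-05), the third largest rise under the naming rule, after Hoxb1 and Hoxb5. It was further up at EB8, at 29638 and 19045. Cdx1, a homeobox gene of the posterior embryo, went from 21 and 15.3 in EB4 to 2092 and 1620.3 in EB5 (log2 change 6.60 ± 0.62, adjusted p = 0.000129). Zfp703, a zinc finger corepressor, went from 47.9 and 42.1 in EB4 to 4963 and 2347 in EB5 (log2 change 6.22 ± 0.56, adjusted p = 9.28e-05). Both EB5 values of these 3 genes were far above both EB4 values.

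Nr2f1 (COUP-TFI), an orphan receptor of the developing nervous system, was almost silent before RA, at 0 and 1.28 in EB4 and 261 and 53.3 in EB5; the 1 read of EB4 against 330 reads of EB5 gave a ratio of 259 with a 95% counting interval of 46.2 to 10276. The pioneer factor Foxa1 rose by 4.57 ± 0.38 and Zfp503 by 4.17 ± 0.60 (adjusted p = 5.14e-05 and 0.00266). Tshz1 and Nr6a1 rose as well. Nr6a1 (GCNF), a receptor that represses Pou5f1, was already high and went from 6297 and 5083 in EB4 to 14714 and 10355 in EB5 (log2 change 1.13 ± 0.24, adjusted p = 0.0256). Gbx2 stood at 92.3 and 77.8 in EB4 and 1471 and 464 in EB5 and missed the threshold (adjusted p = 0.0650), as did Nr2f2, Nkx1-2, Ripply3 and Egr2. Tgm2, at 85.3 and 99.5 in EB4 and 258 and 323 in EB5, passed only with the replicate block (adjusted p = 0.126 without and 0.0476 with it). In the plot of selected genes over all 16 libraries, the RA genes stood higher at EB5 than at EB4 in both genotypes.

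**Figure D1:**
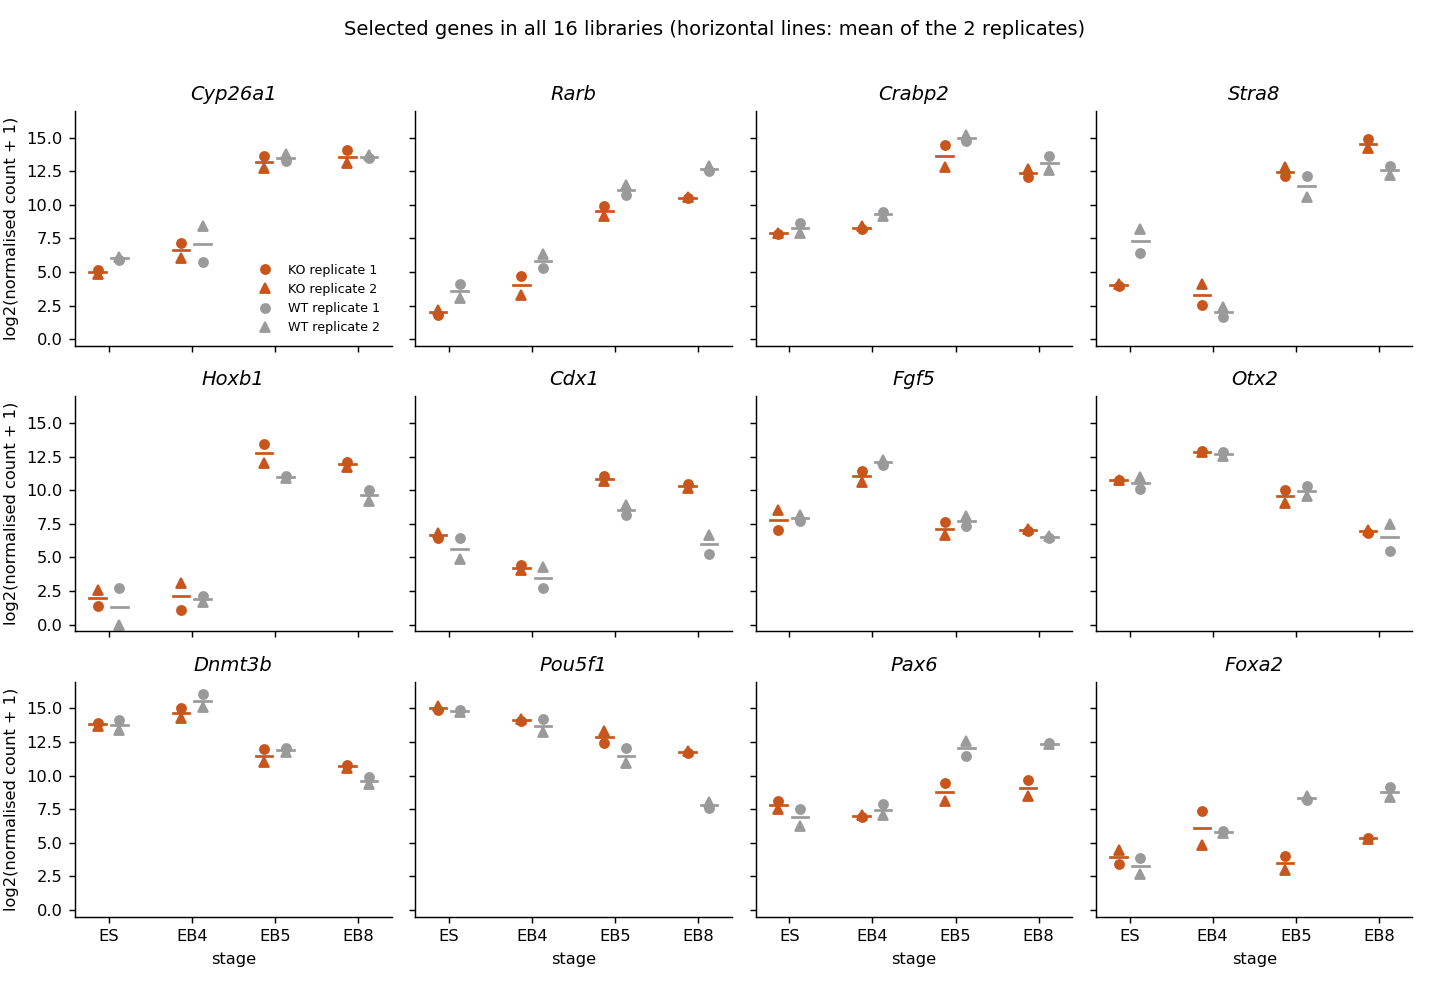
Normalised counts on a log2(value + 1) axis for 12 genes in the ES, EB4, EB5 and EB8 libraries, with KO in orange and WT in grey, replicate 1 as circles, replicate 2 as triangles and the mean of the 2 as a short bar. In KO Cyp26a1, Rarb, Crabp2, Stra8, Hoxb1 and Cdx1 rose between EB4 and EB5 and Fgf5, Otx2 and Dnmt3b fell. Pou5f1, Pax6 and Foxa2 did not pass the main test in KO.

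Of 39 Hox genes 32 were tested, 24 rose (75%) and 0 fell, against a background of 1.82% of genes that rose. With only the compared groups in the fit 14 rose. In 30 of the 32 both EB5 values were above both EB4 values, against 25.9% of all tested genes. The median change of the list was 5.39, and 5.33 with the 5 tested genes that had 0 reads in EB4 placed at their lower bound. The 7 genes under the filter were Hoxa11, Hoxa13, Hoxc11, Hoxc12, Hoxd10, Hoxd11 and Hoxd12. Before RA most Hox genes were close to silent, so they reached the filter mean through other libraries, those of EB5 among them. The share of tested members that rose is therefore not independent of the filter. With no filter 24 rose and 0 fell, with a list median of 4.89.

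Hoxb1, the first gene of the HoxB cluster and a marker of hindbrain rhombomere identity, had the largest rise of the naming rule: 1.17 and 7.66 in EB4 and 11217 and 4129.9 in EB5 (log2 change 10.62 ± 0.84, adjusted p = 4.34e-05). It lies at chr11:96227066-96229570 (NCBI37). Replicate 1 of EB5 was above replicate 2, a spread that was small beside the distance to EB4. Per kilobase of exon the 2 EB5 libraries held 4831 and 1779 normalised counts for Hoxb1, the highest level per length of the family, and 94.2 and 37.5 for Hoxd1. Hoxd1, of the same paralogue group, stood at 35 and 15.3 in EB4 and 175 and 69.8 in EB5 and did not pass (adjusted p = 0.167).

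The middle of the HoxB cluster was at or near 0 reads before RA. Hoxb5 had 0 reads in both EB4 libraries and 1192 and 413 normalised counts in EB5, at least 441-fold higher when 3 reads are allowed for EB4 as a group. Hoxb3 and Hoxb8, also at 0 reads in EB4, were at least 124-fold and 149.6-fold higher. Hoxb4 went from 1.17 and 2.55 in EB4 to 1827 and 719.5 in EB5, a ratio of 699 with a 95% counting interval of 239 to 3393. Hoxb6 and Hoxb2 each had 1 read in EB4 and reached 1107 and 383 (Hoxb6) and 595 and 241 (Hoxb2) in EB5. In all 9 risen genes of HoxB, replicate 1 of EB5 was the higher library.

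In HoxA 8 of 9 tested genes rose; Hoxa5 went from 1.17 and 6.38 in EB4 to 996 and 582 in EB5 (log2 change 7.57 ± 0.64, adjusted p = 5.68e-05) and Hoxa3 from 0 and 1.28 in EB4 to 356 and 206 in EB5 (log2 change 7.49 ± 0.67, adjusted p = 9.13e-05). In HoxC 5 of 7 rose; Hoxc4 went from 8.18 and 8.93 in EB4 to 738 and 326 in EB5 and Hoxc5 from 4.67 and 0 in EB4 to 499.6 and 261 in EB5. In HoxD 2 of 6 rose, Hoxd3 and Hoxd8; Hoxd3 had 0 reads in EB4 and 149.8 and 20.4 normalised counts in EB5. Hoxa10, Hoxd9 and Hoxb13 passed with the replicate block only (adjusted p = 0.0419, 0.0217 and 0.0491 with it, 0.0986, 0.0782 and 0.241 without).

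The responses are given here by position along the clusters, from 3' to 5'. Paralogue groups 1 to 5 had 15 genes, of which 13 rose, with a median change of 7.25. Groups 6 to 9 had 12 genes, of which 11 rose, with a median of 4.90. Of the 12 genes of groups 10 to 13, the 5 tested had a median of 1.08 and 0 of them passed. These bins were chosen after the values were seen. The library kit does not mark strand, so reads of overlapping genes cannot be told apart. The antisense transcript Hoxb3os (from 1.17 and 1.28 in EB4 to 715 and 291 in EB5) shares 49.4% of the exon bases of Hoxb2 and 37.9% of those of Hoxb3. Hoxd3 shares 67.4% of the exon bases of Hoxd4, and Hoxb7 shares 40.4% of those of Hoxb8. The same limit holds for genes outside the Hox list. For example, Elp4 shares 27.9% of the exon bases of Pax6 and Gm17685 26.4% of those of Fgf15. Copg2 shares 23% of those of Mest and A930024N18Rik 20.5% of those of Dll1.

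**Figure D2:**
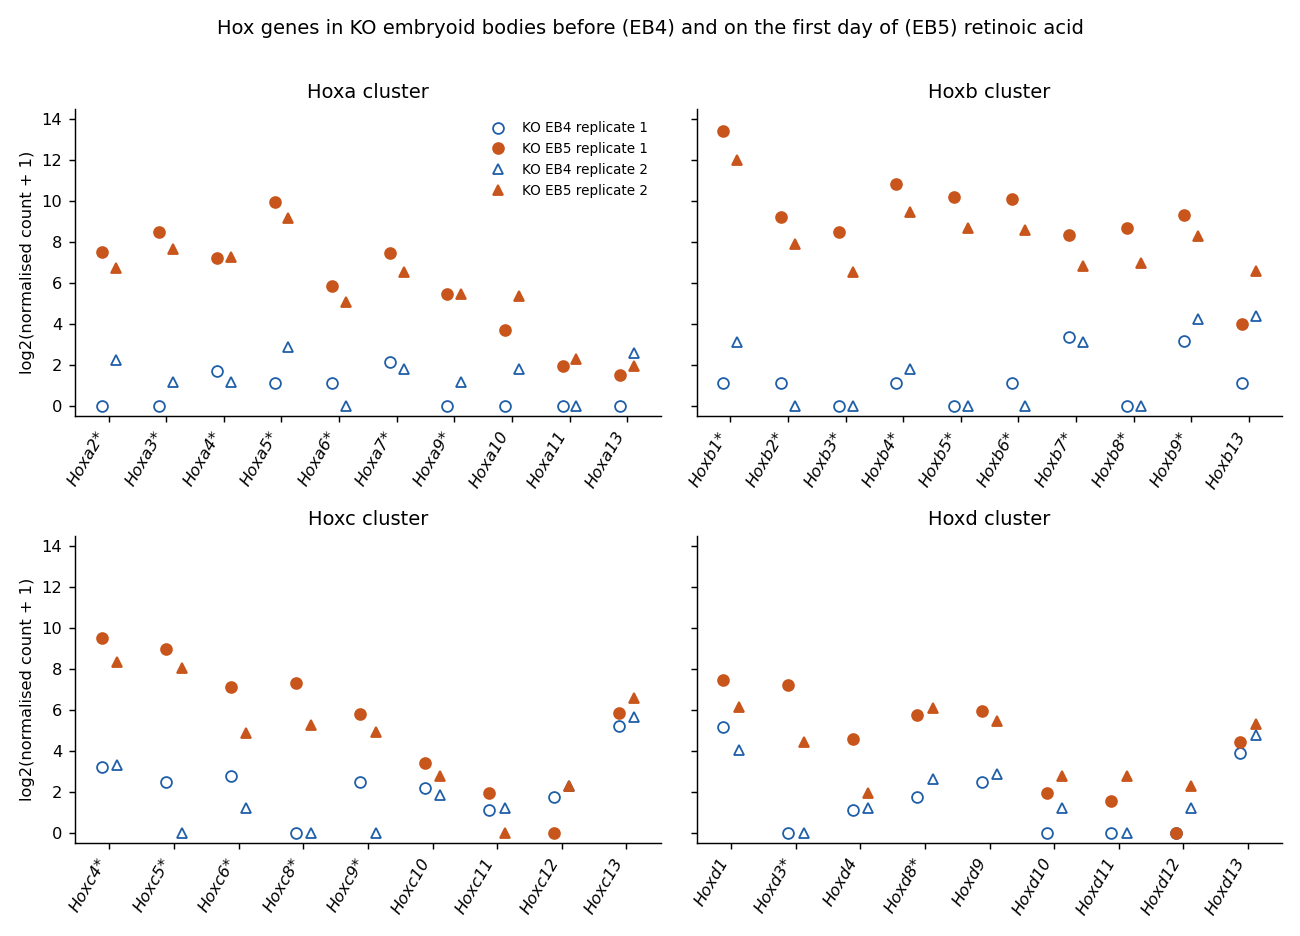
Each panel is a Hox cluster with the reported genes in order of paralogue number on the x axis and log2(normalised count + 1) on the y axis; open symbols are KO EB4, filled symbols KO EB5, circles replicate 1 and triangles replicate 2. An asterisk marks genes that rose; genes numbered 10 to 13 stayed close to their EB4 levels or missed the threshold.

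Meis and Pbx proteins bind DNA together with Hox proteins. Of 9 tested cofactor genes 4 rose and 0 fell. Meis2 went from 67.8 and 130.2 in EB4 to 3772 and 1858 in EB5 (log2 change 4.80 ± 0.51, adjusted p = 0.000291) and Meis1 from 47.9 and 37 in EB4 to 1922 and 700.1 in EB5 (log2 change 4.75 ± 0.69, adjusted p = 0.00266). Pbx2 was already read before RA and went from 1401 and 1286 in EB4 to 3749 and 3207 in EB5 (log2 change 1.37 ± 0.16, adjusted p = 0.00083). Pknox2 stood at 29.2 and 76.6 in EB4 and 868 and 402 in EB5 and passed with the replicate block only (adjusted p = 0.0570 without and 0.0239 with it). Pbx3, Pbx4, Meis3 and Pknox1 did not pass.

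Formative and primed genes mark the epiblast around implantation. Of 13 tested members 5 fell and 0 rose, against 0.695% of all genes that fell, with a list median of -1.21. Falls numbered 7 with the replicate block and 8 with DESeq2, against 1.49% and 2.26% of all tested genes. With the block in only the compared groups 942 of all 16124 tested genes fell and 1152 rose. Of the list 9 fell and 1 rose in that fit. The count was 3 without EB5 replicate 1, 2 without EB5 replicate 2 and 2 with only the compared groups in the fit. Fgf5, a growth factor of the primed epiblast, went from 2751 and 1589 in EB4 to 198 and 98.9 in EB5 (log2 change -3.89 ± 0.47, adjusted p = 0.000904). The EB5 libraries were 14.6-fold lower in the mean. Foxd3, a forkhead gene of epiblast and neural crest, went from 1221 and 369 in EB4 to 42.7 and 46.5 in EB5 (log2 change -3.88 ± 0.67, adjusted p = 0.00836). The 2 EB4 values lay far apart.

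Otx2, which marks primed epiblast and later forebrain and midbrain, went from 7699 and 7268 in EB4 to 1029 and 536 in EB5 (log2 change -3.33 ± 0.53, adjusted p = 0.00481). Dnmt3b, a de novo DNA methyltransferase of the epiblast, went from 33654 and 20473 in EB4 to 4109 and 2033 in EB5 (log2 change -3.18 ± 0.39, adjusted p = 0.000904). Dnmt3a and Zic5 passed with the replicate block only (adjusted p = 0.0424 and 0.04997 with it, 0.0714 and 0.128 without). Lef1, Utf1, Zic2, Cldn6, Sall2 and Sox4 did not pass in either fit.

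Of 23 tested core and naive genes 0 passed in either direction in the main fit, and the list median was -0.39. Falls numbered 2 with the replicate block and 3 with DESeq2, against 1.49% and 2.26% of all tested genes. With the block in only the compared groups 942 of all 16124 tested genes fell and 1152 rose. Of the list 9 fell and 1 rose in that fit. Both EB5 values were below both EB4 values in 9 of the 23 and above them in 2, against 24.2% and 25.9% of all tested genes. Pou5f1 (Oct4) stood at 17374 and 19545 in EB4 and 5628 and 10036 in EB5 (log2 change -1.29 ± 0.38, adjusted p = 0.105); both EB5 values were below both EB4 values, and it passed with the replicate block (adjusted p = 0.0456). Tet1 stood at 10570.3 and 19623 in EB4 and 6467 and 7745 in EB5 and likewise passed with the block only (adjusted p = 0.0700 without and 0.0320 with it). Nanog stood at 12278 and 18551 in EB4 and 9428 and 13846 in EB5, so that its stages overlapped (adjusted p = 0.791). Sox2 (14329.7 and 12410.5 in EB4 and 12814 and 11281 in EB5) and Sall4 (10263 and 9399 in EB4 and 10281 and 10346 in EB5) were at the same order of counts in all 4 libraries. Zfp42 (Rex1) varied more between the replicates than between the stages, at 1147 and 2261 in EB4 and 1095 and 2172 in EB5. Klf4, Nr0b1 and Fgf4 had lower means in EB5 and did not pass (adjusted p = 0.398, 0.132 and 0.283).

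Of 24 tested neural progenitor genes 2 rose (8.33%, against 1.82% of all tested genes) and 0 fell, and the list median was 1.09. The count was 4 with the replicate block (3.00% of all tested genes rose), 7 with DESeq2 (4.04%) and 1 with only the compared groups. With the block in only the compared groups 1152 of all 16124 tested genes rose and 942 fell. Of the list 8 rose and 1 fell in that fit. The list median was 0.459 without EB5 replicate 1 and 1.5 without EB5 replicate 2. Irx3, which patterns the neural tube, went from 42.1 and 29.4 in EB4 to 524 and 381 in EB5 (log2 change 3.63 ± 0.61, adjusted p = 0.00699), and Pax3, of the dorsal neural tube, from 7.01 and 10.2 in EB4 to 67.3 and 48.5 in EB5 (log2 change 2.62 ± 0.51, adjusted p = 0.0183). Msx3 and Olig3 passed with the block only (adjusted p = 0.0499 and 0.0375). Pax6 stood at 123 and 131 in EB4 and 696 and 278 in EB5, with no overlap between the stages, and did not pass (adjusted p = 0.129, 0.0674 with the block). Nes was read at 3917 and 2556 in EB4 and 6159 and 3374 in EB5 and did not pass. Dbx1 was at or near 0 in all 4 KO libraries. Sox1 was not analysed here.

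Of 23 tested neuron genes 1 rose, Ebf2, from 1.17 and 1.28 in EB4 to 12.3 and 17.5 in EB5. Tubb3, Dcx and Elavl3 did not pass, with Tubb3 at 1439 and 1932 in EB4 and 1168 and 1270.3 in EB5 and Dcx at 23.4 and 2.55 in EB4 and 25.6 and 7.76 in EB5. Ina, an intermediate filament of early neurons, was lower in EB5 (2181 and 1617 in EB4 and 752 and 469 in EB5) and passed with the block only (adjusted p = 0.118 without and 0.0122 with it). Of 23 tested Notch and proneural genes 1 rose (4.35%), Lfng, which modifies Notch receptors (183 and 130.2 in EB4 and 571 and 452 in EB5). The ligand gene Dll1 and the proneural gene Neurog1 passed with the block only (adjusted p = 0.0311 and 0.00812), at 12.9 and 3.83 in EB4 and 91 and 31 in EB5 for Neurog1. Of 16 tested brain region genes, Lhx2 rose (4.67 and 10.2 in EB4 and 267 and 103 in EB5) and Fgf15 fell (259 and 285 in EB4 and 29.4 and 22.3 in EB5). Wnt1 and Sp8 of that list passed as higher with the block only (adjusted p = 0.0375 and 0.0273), as did Lhx1 of the neuron list (adjusted p = 0.0369).

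Of 21 tested streak and mesoderm genes 4 rose (19.05%, against 1.82% of all tested genes). Foxc2 went from 0 and 1.28 in EB4 to 127 and 66.9 in EB5, and Foxc1 from 7.01 and 15.3 in EB4 to 685 and 156 in EB5. Meox1 went from 1.17 and 1.28 in EB4 to 172 and 24.2 in EB5, and Wnt3a from 8.18 and 2.55 in EB4 to 52.1 and 65 in EB5. Whether these 4 genes mark a region of the embryo was not tested. The count was 2 without EB4 replicate 2 or EB5 replicate 1 and 1 with only the compared groups. Other members of the list had lower values in EB5. T stood at 645 and 134 in EB4 and 30.3 and 24.2 in EB5. Mixl1 stood at 328 and 48.5 in EB4 and 14.2 and 1.94 in EB5. Neither passed (adjusted p = 0.129 and 0.0783). Eomes stood at 2158 and 741 in EB4 and 409.6 and 247 in EB5 and passed with the block, as did Mixl1 (adjusted p = 0.0239 and 0.0275). Of 19 tested endoderm genes 1 rose, Gata6, from 75.9 and 40.8 in EB4 to 853 and 519.8 in EB5 (log2 change 3.56 ± 0.48, adjusted p = 0.00184). Foxa2, of floor plate and endoderm, stood at 161 and 28.1 in EB4 and 15.2 and 6.79 in EB5 and did not pass (adjusted p = 0.0874). Its fall in KO passed in DESeq2 (adjusted p = 0.00134) and not in edgeR (adjusted p = 0.0631). Of 10 tested neural crest and plate border genes 1 rose, Dlx3, from 95.8 and 89.3 in EB4 to 1444 and 869 in EB5, and Msx2 passed with the block only (adjusted p = 0.0165). None of the 8 trophoblast genes and 9 tested blood and endothelium genes passed, and the embryonic globins Hba-x and Hbb-y were at 0 in all 4 libraries. The trophoblast list summed to 3532 and 4048 normalised counts in EB4 and 6583 and 6014 in EB5, and the blood and endothelium list to 2270 and 3484 in EB4 and 3200 and 3964 in EB5.

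The ESCs had been grown on fibroblast feeders, and for spontaneous EB formation the study's methods describe removing the feeders first. Fibroblast markers were looked at in the same libraries. The 12 listed genes summed to 3058 and 3063 normalised counts in EB4 and 5532 and 5850 in EB5. Of 10 tested 1 rose, Pdgfrb, from 18.7 and 25.5 in EB4 to 310 and 329.7 in EB5, a receptor that mesenchyme also carries. Col1a1 stood at 173 and 145 in EB4 and 432 and 476 in EB5 and Col1a2 at 129 and 131 in EB4 and 496 and 329 in EB5, and neither passed. Lum had 0 reads in EB4. The part of feeder cells in the mesenchymal rises was not tested.

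**Figure D3:**
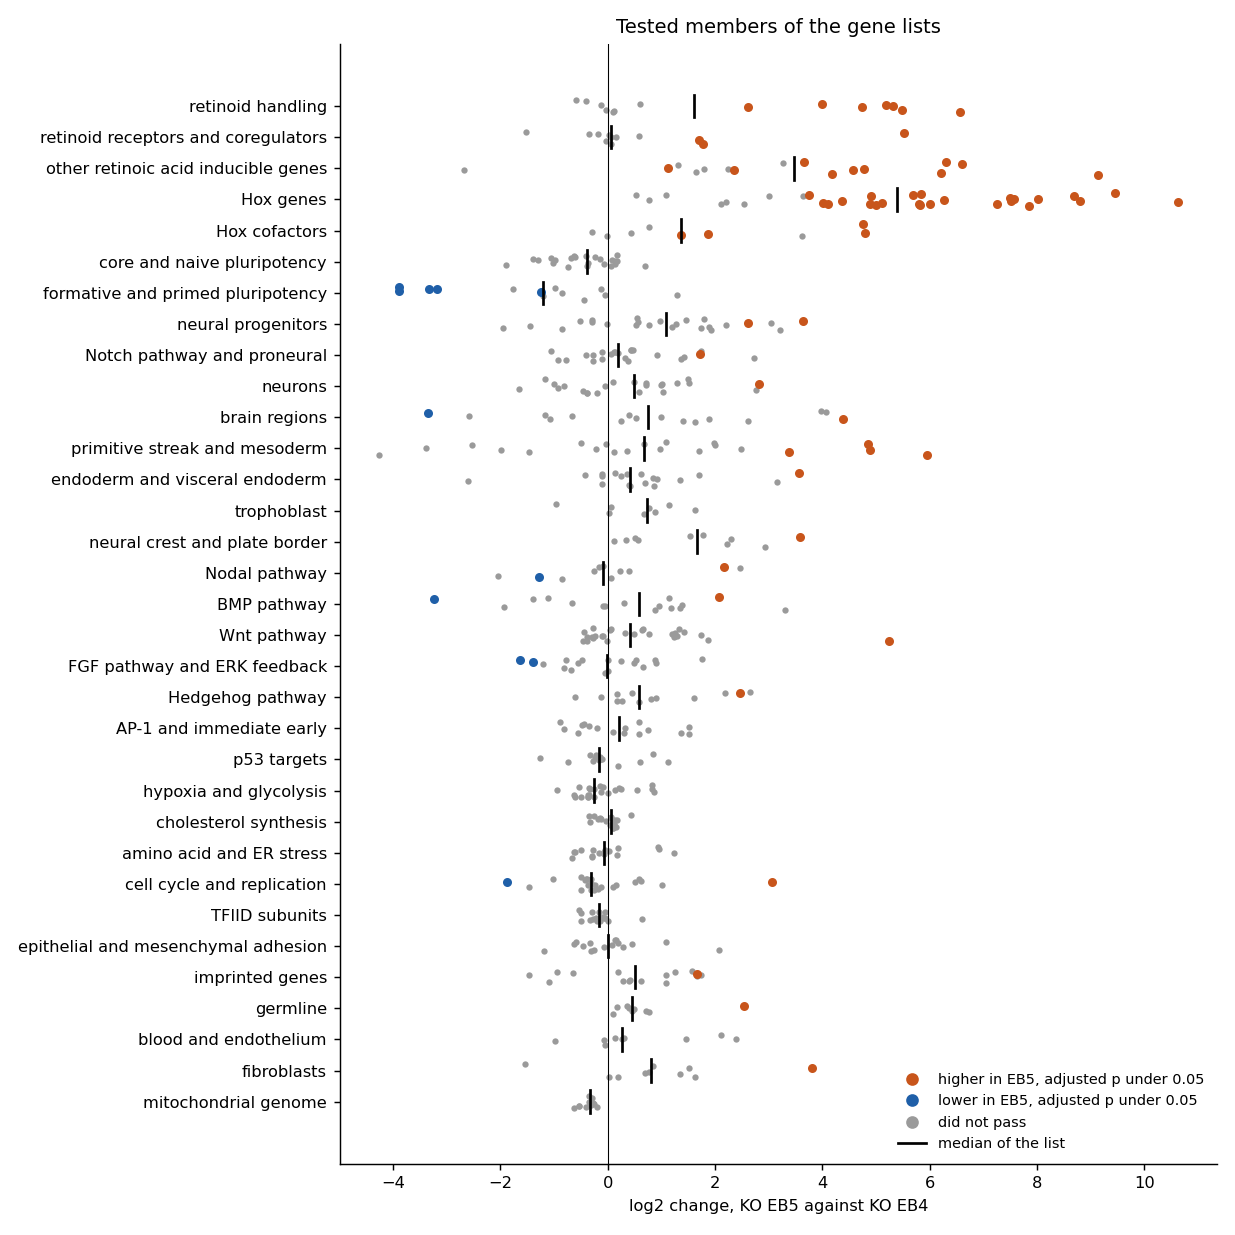
Log2 change of KO EB5 against KO EB4 (x axis) for the tested members of the 33 gene lists (rows); orange and blue points passed the test, grey points did not, and black bars are list medians. The Hox list has the median farthest to the right, and the formative and primed list that farthest to the left.

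In the FGF and ERK feedback list 2 of 18 fell and 0 rose: Spry2 from 3969.7 and 3626 in EB4 to 1426 and 1033 in EB5 (log2 change -1.64 ± 0.38, adjusted p = 0.0428) and the ETS factor Etv5 from 13639 and 18899.7 in EB4 to 7098 and 5271 in EB5 (log2 change -1.39 ± 0.28, adjusted p = 0.0204). Both calls were lost under quantile normalisation, and that of Spry2 also in edgeR. Dusp6, another ERK feedback gene, stood at 3638 and 3086 in EB4 and 4051 and 2607 in EB5 and did not pass. In the Nodal list 1 of 11 rose and 1 fell. The inhibitory Smad7 fell from 2217 and 2451 in EB4 to 959 and 964 in EB5. Lefty1 stood at 1002 and 1429 in EB4 and 7962 and 5426 in EB5 and missed the threshold (adjusted p = 0.103).

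In the BMP list 1 of 16 rose and 1 fell. Smad6 rose from 119 and 67.6 in EB4 to 441 and 331 in EB5 (log2 change 2.08 ± 0.49, adjusted p = 0.0474). The activin antagonist Fst fell from 933 and 308 in EB4 to 74 and 41.7 in EB5 (log2 change -3.25 ± 0.78, adjusted p = 0.0499). Noggin (Nog) passed with the block only (adjusted p = 0.107 without and 0.0119 with it). In the Wnt list 1 of 28 rose, the secreted antagonist Sfrp5, from 4.67 and 6.38 in EB4 to 454 and 129 in EB5 (log2 change 5.23 ± 0.64, adjusted p = 0.000959); Axin2, a general readout of Wnt signalling, stood at 811 and 458 in EB4 and 861 and 459 in EB5. In the Hedgehog list 1 of 13 rose, the co-receptor Boc, from 40.9 and 37 in EB4 to 339 and 142 in EB5. Fzd3 and Wls of the Wnt list passed with the block only (adjusted p = 0.0377 and 0.00893). The other Hedgehog co-receptors Cdon and Gas1 passed with the block only (adjusted p = 0.0127 and 0.0493).

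Of 23 cell cycle and replication genes 1 rose and 1 fell. Ccnd2 (cyclin D2) went from 480.1 and 763 in EB4 to 8445 and 3005 in EB5 (log2 change 3.05 ± 0.59, adjusted p = 0.0169) and Mycn from 5109 and 3301 in EB4 to 1649.7 and 764 in EB5 (log2 change -1.87 ± 0.37, adjusted p = 0.0191). Ccnd1, by contrast, stood at 3606 and 3135 in EB4 and 1413 and 1047 in EB5 and did not pass (adjusted p = 0.132), and the Mcm genes, Pcna and Mki67 did not pass. No member of the lists for p53 targets, hypoxia and glycolysis, cholesterol synthesis, amino acid and ER stress, immediate early genes, adhesion, mitochondrial genome or TFIID subunits passed. With the replicate block Atf3, Sesn1, Zeb2 and Cdh5 passed as higher (adjusted p = 0.0407, 0.0375, 0.0360 and 0.0345) and Ccne1 and Snrpn as lower (adjusted p = 0.0496 and 0.0170). Of 16 tested imprinted genes 1 rose (6.25%), Mest, from 3301 and 2859.8 in EB4 to 16299.7 and 5779 in EB5. Of 9 tested germline genes 1 rose (11.11%), Rec8, a meiotic cohesin that RA induces in germ cells. Rec8 went from 449.8 and 416 in EB4 to 2554 and 2484 in EB5 (log2 change 2.54 ± 0.27, adjusted p = 0.00026). The replicates of Rec8 lay close together within each stage.

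Over all 33 lists 551 genes were tested, and 67 of the 293 risen and 11 of the 112 fallen genes were members. The remaining falls of the naming rule were outside the lists. Enpp2 (autotaxin), which makes lysophosphatidic acid, went from 792 and 304 in EB4 to 49.3 and 19.4 in EB5 (log2 change -3.94 ± 0.93, adjusted p = 0.0453), the largest fall. Replicate 1 was well above replicate 2 at each stage. Vrtn went from 1336 and 680.2 in EB4 to 92.9 and 66.9 in EB5, the kinase gene Pim2 from 10255 and 7811 in EB4 to 772 and 862 in EB5 and Enox1 from 485 and 1201 in EB4 to 67.3 and 77.6 in EB5. Bcl11a, a zinc finger repressor, went from 251 and 347 in EB4 to 35.1 and 62.1 in EB5 and Pdzd4 from 5520 and 7254 in EB4 to 1027 and 1087 in EB5 (log2 change -2.58 ± 0.29, adjusted p = 0.000517). The naming rule required both EB5 values to be below both EB4 values, so the lack of overlap in these genes is no separate result. Of the 12 falls of the rule, Enpp2, Fst and Fgf15 lost the call whichever of the 4 libraries was left out. Bcl11a lost it without either EB4 library or EB5 replicate 1, Foxd3 without EB4 replicate 1 or either EB5 library, and Otx2 without EB5 replicate 2. The call of Enpp2 was also lost with a pseudocount of 0.1, with no filter, in edgeR and with only the compared groups. The rises of the rule kept the call whichever library was left out.

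Further genes outside the lists and the rule were chosen after their values were seen. Mdk (midkine), a growth factor that RA induces, went from 3002 and 1732 in EB4 to 27429.5 and 18049.7 in EB5 (log2 change 3.29 ± 0.27, adjusted p = 4.34e-05). Atoh8, a bHLH factor, had 2 reads in EB4 and 292 and 113 normalised counts in EB5. Mnx1, a homeobox gene of motor neurons, went from 5.84 and 7.66 in EB4 to 141 and 59.2 in EB5. The GDNF receptor genes Ret and Gfra1 both rose, Ret by 1.81 ± 0.37 and Gfra1 by 3.26 ± 0.51 (adjusted p = 0.0218 and 0.00481). Nrp1, a receptor for semaphorins and VEGF, went from 17.5 and 12.8 in EB4 to 212 and 98.9 in EB5, and Efnb1, which encodes an ephrin, from 103 and 161 in EB4 to 1832 and 2059.6 in EB5.

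Falls were chosen in the same way. L1td1, an RNA-binding protein of ESCs, went from 15394 and 19404 in EB4 to 5205 and 6285 in EB5 (log2 change -1.60 ± 0.28, adjusted p = 0.00872). The amino acid transporter genes Slc7a3 and Slc7a7 fell by 2.42 and 2.30 on the log2 scale (adjusted p = 0.0116 and 0.0103). Zfp57, which protects imprints, went from 4286 and 6977 in EB4 to 1455 and 2680.2 in EB5, and Lifr, the receptor of LIF, from 1819 and 2049 in EB4 to 1009.7 and 939 in EB5.

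The same contrast in WT called 417 genes up (2.59% of tested genes) and 184 down (1.14%), 3.73% in all. With the replicate block these were 588 (3.65%) and 329 (2.04%), 5.69% in all. Of the 293 genes that rose in KO, 181 also rose in WT, which is 61.8% of the KO list and 43.4% of the WT list. Of the 112 that fell in KO, 49 also fell in WT, 43.8% and 26.6%. No gene passed in opposite directions. The change had the same sign in both genotypes for 291 of the 293 and 110 of the 112, and for 72.1% of all tested genes. The 2 genotypes share no library in this comparison. The risen genes had a median change of 2.79 in KO, where they were chosen, and 2.27 in WT.

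**Figure D4:**
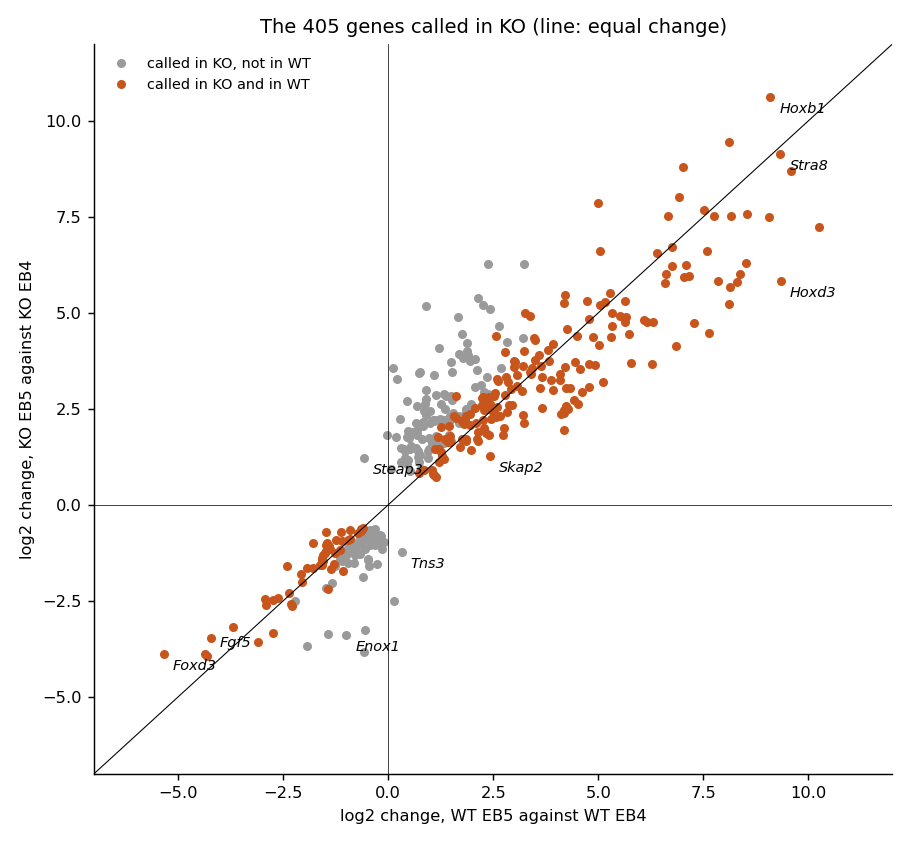
Log2 change of EB5 against EB4 in WT (x axis) and in KO (y axis) for the 405 genes called in KO; orange points were called in both genotypes, grey points in KO only, and the diagonal marks equal change. Almost all points share a sign; Steap3 and Tns3 are among the few that do not.

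The difference between the genotypes was tested itself, as the KO change minus the WT change. No gene passed in limma (0 of 16124, 0%), with 478 genes (2.96%) at an unadjusted p under 0.05; edgeR called 0 and DESeq2 4. Dbx1 was among the genes at the lowest adjusted p in limma, 0.196. Dbx1, an interneuron progenitor gene, stood at 0 and 2.14 in EB4 and 612 and 1631 in EB5 in WT against 0 and 0 in EB4 and 2.84 and 0 in EB5 in KO, a difference in change of -8.17 ± 1.23. The gene was at or near 0 before RA in both genotypes.

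Further genes were called in WT and not in KO, and their difference between the genotypes did not pass. Pax6 reached 2855 and 6135 in WT and 696 and 278 in KO (difference in change -2.78 ± 0.80, unadjusted p = 0.00439, adjusted p = 0.9999). Aldh1a2 stood at 4.38 and 10.7 in EB4 and 36.7 and 92.2 in EB5 in WT, where it rose (adjusted p = 0.0199). Crabp1 stood at 74.5 and 68.6 in EB4 and 365 and 804 in EB5 in WT, where it rose (adjusted p = 0.00673). Among the falls, Pou5f1 stood at 19285 and 9597 in EB4 and 4186 and 1936 in EB5 in WT and passed there (-2.26, adjusted p = 0.00523), and the difference from KO was 0.96 ± 0.54 (adjusted p = 0.9999). With 2 libraries a group, a missed threshold does not show that the genotypes changed alike.

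Within the Hox list the sign of the difference was not the same in the low and the high paralogue groups, although no gene passed (lowest adjusted p = 0.9999). In groups 1 to 5 the change was smaller in KO in 12 of 15 genes, with medians of 7.25 in KO and 8.13 in WT. In groups 6 to 9 it was larger in KO in all 12 genes, with medians of 4.90 and 2.82, and 11 passed in KO against 5 in WT. These 2 counts of calls are not a test of the difference, and the bins were chosen after the values were seen. Over all tested genes the median of the KO change minus the WT change was 0.0015. In groups 10 to 13 it was larger in KO in all 5 tested genes. Hoxd4, a lower-numbered example, stood at 1.17 and 1.28 in EB4 and 22.8 and 2.91 in EB5 in KO and 0 and 0 in EB4 and 89.4 and 299 in EB5 in WT. Hoxc8, a higher-numbered one, stood at 0 and 0 in EB4 and 155 and 36.8 in EB5 in KO and 1.10 and 1.07 in EB4 and 6.59 and 14.3 in EB5 in WT. The genes of a cluster lie side by side and are not independent, and no test was made over them. Cdx1 was also higher in KO at EB5, at 2092 and 1620.3 against 283 and 478 in WT (difference in change 1.56 ± 0.88, adjusted p = 0.9999).

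**Figure D5:**
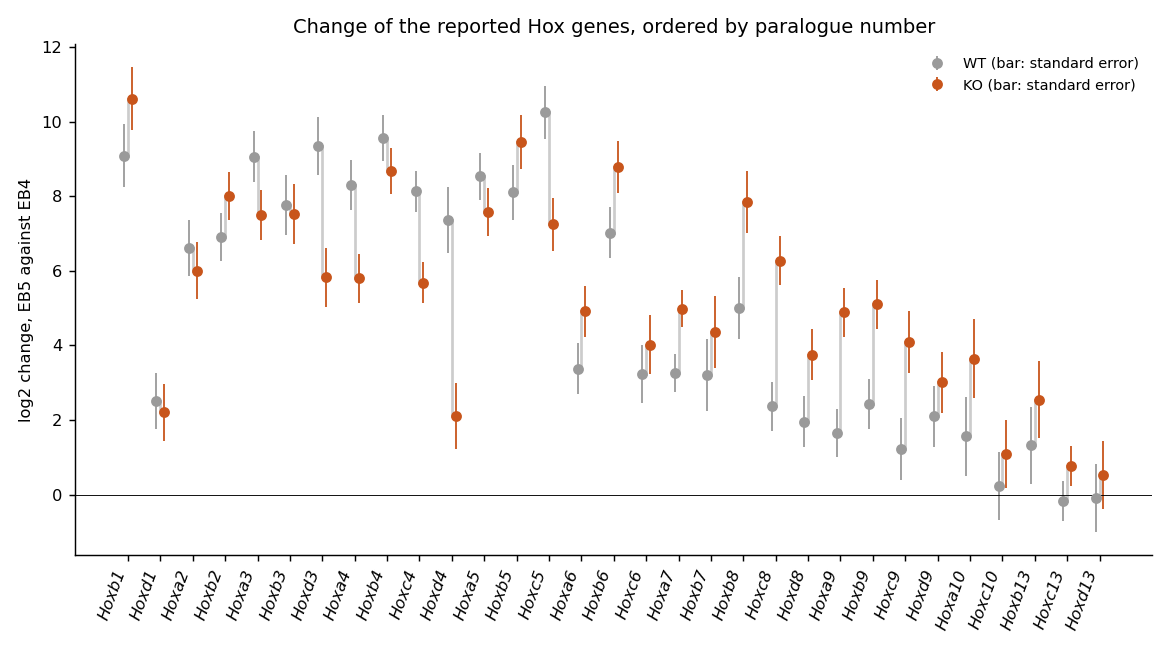
Log2 change of EB5 against EB4 (y axis) for the tested Hox genes that are reported, in order of paralogue number (x axis), WT in grey and KO in orange, with bars of 1 SE and a line joining the genotypes. KO points lie below WT points for most genes numbered 1 to 5, apart from Hoxb1, Hoxb2 and Hoxb5, and above them for all genes numbered 6 and higher; no single difference passed.

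The 2 KO replicates are set side by side here. Replicate 1 of EB5 was above replicate 2 in 201 of the 293 risen genes (68.6%), against 51.1% of all tested genes. Among the 32 tested Hox genes it was higher in 25, with a median ratio of 1.91, which was 2.77 for HoxB on chromosome 11 and 1.71 for HoxA on chromosome 6. The median level of genes on chromosome 11 was above the all-library level by 0.18 (log2) in replicate 1 at both stages, and by -0.07 and -0.03 in replicate 2. Genes on the X chromosome were at -0.21 and -0.18 in replicate 1 and 0.55 and 0.40 in replicate 2. These offsets were present before and after RA, and the median change of a chromosome lay between -0.14 and 0.09; their part in the differences between the replicates was not tested. The labels do not say which line a replicate number stands for. Of 649 genes with a rise of at least 2 (log2) in replicate 1, 93.5% had a higher value in EB5 in replicate 2, with a median change of 1.89. Of 115 genes with such a fall, 84.35% were lower in replicate 2, with a median of -1.59. Of 611 genes with such a rise in replicate 2, 89.4% had a higher value in EB5 in replicate 1. Among the other genes called above, Cyp26a1, Cyp26c1, Crabp2, Dhrs3, Rarb, Nrip1, Cdx1, Zfp703, Zfp503, Foxa1, Hoxc4, Hoxc8, Hoxd3, Meis1, Meis2, Pbx2, Foxc1, Foxc2, Gata6, Lhx2, Sfrp5, Rec8, Mdk, Atoh8, Mnx1, Nrp1 and Efnb1 kept an adjusted p under 0.05 without any 1 KO library. Stra6, Cyp26b1, Rara, Nr2f1, Tshz1, Nr6a1, Hoxb7, Hoxd8, Irx3, Pax3, Ebf2, Lfng, Meox1, Wnt3a, Dlx3, Pdgfrb, Smad7, Smad6, Boc, Spry2, Etv5, Ccnd2, Mycn, Mest, Ret, Gfra1, L1td1, Slc7a3, Slc7a7, Zfp57, Lifr, Steap3 and Tns3 lost it without at least 1 of them. In edgeR, Fst, Spry2, Enpp2, Zfp57 and Smad6 did not pass.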

How the data were processed

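Polyadenylated RNA of 16 samples (WT and Taf4a-/-, 4 stages, 2 replicates each) was sequenced with single-end reads from a kit that does not mark strand. Per the submitters' processing notes the reads were handled with CASAVA 1.7 and 1.8, TopHat2 2.0.10, HTSeq 0.5.4p3 and DESeq2 1.0.19 on NCBI37 (mm9). The strand setting and the annotation release are not given in the sources used here. The authors deposited gene counts divided by a size factor per library, a normalised signal that is not a whole number. All values were whole multiples of 1 step per library (tolerance 0.02 of a step), so whole reads were recovered: 22442118 to 40711826 per library. Counting intervals and floors (3 reads) cover counting error only.

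The main test was limma 3.58.1 (R 4.3.3) on log2(value + 1) with 8 group means over the 16 libraries, a mean-variance trend, a filter at a mean of 10 and Benjamini-Hochberg adjusted p under 0.05. This gives 8 residual and 4.27 prior degrees of freedom. edgeR 4.0.16 and DESeq2 1.42.0 on the recovered reads, another pseudocount, filter and scaling, a replicate block and leaving out each library were alternatives. Tables and figures used Python 3.11.15, pandas 2.3.3, numpy 2.4.6, scipy 1.17.1 and matplotlib 3.10.9. Gene positions are from GENCODE M1; promoters are from RefSeq (GRCm38.p6), which is another build, and no coordinates were converted.

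Same-numbered KO libraries deviated together in all 6 pairs of stages (r = 0.233 to 0.422 across genes, 0.422 for EB4 and EB5). The series describes 2 independent lines per genotype. The numbers were therefore treated as pairing in the alternative fits with a replicate block. The main fit held no block, so its calls and adjusted p-values do not take pairing into account. Same-numbered WT EB libraries correlated at 0.523 to 0.606, and WT ES with WT EB libraries at -0.18 to -0.05. Nothing else in the labels describes separate cultures, so p-values measure the spread between these samples.

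Genes were named by a rule: the 12 largest rises and 12 largest falls that passed, with a mean of at least 50 over the 4 KO libraries and no overlap between stages, unnamed gene models left out; the members of 33 gene lists; and Taf4a and Taf4b. A further 47 genes were chosen after their values were seen. The gene lists, and the comparison itself, were chosen with earlier results of these data known. Some members of the lists are counted in the totals but are not reported here by name.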

Additional observations from a re-analysis of the deposited data

Results flagged for a closer look

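The difference between the KO and the WT change from EB4 to EB5 passed in DESeq2 for 4 genes and in neither limma nor edgeR. Foxa2, of floor plate and endoderm, stood at 161 and 28.1 normalised counts in EB4 and 15.2 and 6.79 in EB5 in KO and 57 and 51.5 in EB4 and 293 and 352 in EB5 in WT, moving down in both KO replicates and up in both WT replicates (DESeq2 adjusted p = 0.000297, limma adjusted p = 0.857, edgeR adjusted p = 0.9999). Itga2, an integrin chain, stood at 0 and 3.83 in EB4 and 5.69 and 9.70 in EB5 in KO and 0 and 0 in EB4 and 257 and 284 in EB5 in WT (DESeq2 adjusted p = 0.0452, limma 0.857). Steap3, a metalloreductase, stood at 228 and 189 in EB4 and 499 and 474 in EB5 in KO, where it rose, and 377 and 458 in EB4 and 286 and 269 in EB5 in WT (DESeq2 adjusted p = 0.00451, limma 0.857). Skap2, which lies beside the HoxA cluster on chromosome 6, rose in both genotypes, from 561 and 727 in EB4 to 1735 and 1389.6 in EB5 in KO and 589 and 537 in EB4 to 2806 and 3211 in EB5 in WT (DESeq2 adjusted p = 0.0315, limma 0.9999).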

How the results depend on the processing

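None of the 131 named genes that passed changed direction under any alternative run. The KO count of 405 genes became 91 when only the compared groups entered the fit, 724 with the replicate block, 2094 with the replicate block in only the compared groups, 1017 with DESeq2, 616 with edgeR and the replicate block, and 154 at an adjusted p under 0.01. Leaving out 1 KO library gave 132 to 204. List members that passed (78) became 40, 209 and 133 with only the compared groups, with the block in those groups and with DESeq2, and 47 to 59 without 1 library. The WT count of 601 became 170, 917, 1006 (block in only the compared groups), 1089 (DESeq2) and 249 (0.01), and 197 to 536 without 1 WT library. The difference between the genotypes, at 0 genes, became 3 with a pseudocount of 5 and 4 with DESeq2. Of 131 named genes that passed, 37 passed under every alternative, 82 were lost with only the compared groups, 30 under quantile normalisation and 47 to 67 without 1 KO library. The pairing of replicates through the block moved the calls given beside the results and ended no call of a named gene. The cause of these moves was not tested. With 2 libraries a group, which genes pass depends on how their spread is pooled.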
